A study of Mus musculus with 82 samples.

Results

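Histone H3 trimethylated at lysine 27 (H3K27me3) was mapped in mouse stembryos, and 2008 genomic regions were called for the mark at 120 h and 144 h after aggregation but not at 72 h. They were chosen by a rule applied to the peak lists themselves. All regions of the 6 wild-type (wt) H3K27me3 lists that shared a base were merged, giving 16030 merged regions, and a region was counted as gained if no base of it was called at 72 h and at least 1 base was called in both the 120 h and the 144 h list. Absence at 72 h and presence at 120 h and 144 h are thus what selected these regions and are not results. For comparison, 4239 merged regions were called in the 72 h, 120 h and 144 h lists and in at least 1 list of 96 h (kept regions), 1443 were called at 72 h and at neither 120 h nor 144 h (lost regions), and 8340 met none of these conditions.

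Stembryos, also called gastruloids, are aggregates of mouse embryonic stem (mES) cells that were exposed from 48 h to 72 h to Chiron, a GSK-3 inhibitor acting as a Wnt agonist, and then elongated. All lines and stages from 72 h onwards shared this treatment. Samples of the stages between 72 h and 168 h came from pools of stembryos, and from 108 h only elongating ones were collected. The groups used were Del(CBS1-5) at 96 h (2 H3K27me3 libraries), Del(CBS1) and Del(CBS1-2) at 96 h and 120 h (2 H3K27ac libraries each per stage), and wt at every stage. All mutants lack CTCF-binding sites (CBS) of the HoxD cluster. The Del(CBS1) and Del(CBS1-2) cells were homozygous clones made by CRISPR/Cas9 from the wt mES cells, the second on top of the first, whereas the Del(CBS1-5) cells came from mouse blastocysts, so that deletion and cell origin cannot be told apart in that contrast. For wt, H3K27me3 was available from 1 library for each of the other stages (72, 120 and 144 h) and 3 libraries at 96 h, 2 of them with a replicate number in their label and 1 without. H3K27ac came from 9 unnumbered wt libraries from 48 h to 168 h and 4 numbered ones, total RNA polymerase II (PolII) from 8 stages, and its elongating form phosphorylated on serine 2 (pSer2 PolII) from 5. Every sample is a bulk preparation, so that fewer cells carrying a mark and less of the mark in each cell cannot be told apart.

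H3K27me3 is deposited by Polycomb repressive complex 2 and is found over CpG-rich starts of developmental genes that are silent in a given cell. Acetylation of the same lysine (H3K27ac) marks active promoters and enhancers, and a single lysine cannot carry both groups. Embryonic stem cells already hold H3K27me3 at many regulators of later lineages, while genes of the pluripotent state acquire it as the cells leave that state.

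The lists give, for each called region, the fold enrichment of fragments at its summit over the local background of the same library, which ranks regions within 1 list but does not compare heights between lists. The lowest background of a list, solved from its deposited values, stands for its depth. It was 1.74 fragments per base at 72 h, 1.89 to 2.99 in the wt lists of 96 h, 2.12 at 120 h and 1.61 at 144 h. The 72 h list, with 7732 regions, was therefore shallower than the 120 h list, with 10931, and close to the 144 h list, with 7680. A region missing from a list did not reach significance in that library, which does not show that the mark was absent. Peaks were called without an input control. Among the ribosomal protein genes, which are active in all cells, 1 of 20 (Rps18) lay near a gained region, beside 6.34% of all protein-coding genes. A kept region lay near 9 of 20, beside 14% of all protein-coding genes. The part played by open chromatin in these calls was not tested.

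The rule is sharp at its edges. The gained region closest to a 72 h region lay 14 bases from it, near Gm8773, and the region with the fewest bases called at 72 h that was therefore left out had 194 such bases, near Endod1. The lowest −log10 q of a gained region at 120 h or 144 h was 1.303 (near Aff1). Of the gained regions, 457 (22.8%) lay within 1 kb and 864 (43.0%) within 5 kb of a region called at 72 h, while 518 (25.8%) lay over 100 kb away. When only peaks with a −log10 q of at least 5 were used in all 6 lists, 1615 regions met the rule, and 776 (38.6%) of the 2008 gained regions shared a base with them. When regions within 1 kb of each other were merged first, 1300 regions met it.

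Most gained regions lay near gene starts, and they were shorter than kept regions and richer in CpG than lost ones. Their median length was 980 bases (interquartile range 678 to 1314), against 1489 bases for kept, 345 for lost and 354 for all other merged regions. A merged region spans the calls of all its lists, and kept regions were required in more lists. The difference in length is thus partly set by the rule. The median ratio of observed to expected CpG was 0.46 in gained regions, 0.49 in kept regions, 0.26 in lost regions and 0.28 in the others. A protein-coding start lay inside 23.9% of gained regions and within 2.5 kb of 72.6% of them, against 29.9% and 80.2% of kept regions, 2.77% and 57.4% of lost regions and 6.03% and 52.2% of the others. The middle of a gained region fell in an intron in 46.0% of cases, between genes in 38.4%, in a UTR in 7.92% and in a coding exon in 7.67%. As a description of what the rule selected, the median fold enrichment of gained regions was 3.67 at 120 h (1.45 to 14.4) and 3.63 at 144 h (1.61 to 14.9), beside 4.29 and 4.05 in kept regions.

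The sequences around the 120 h summit of 6 gained regions that hold a start show this base composition directly. They follow the rank of enrichment at 120 h and 144 h, first among the 15 highest regions and then among those at genes of the lists below, leaving out windows with a UTR base, and are written in the direction of the gene, with each CG dinucleotide in capitals (RefSeq assembly GRCm38, the mm10 build). Arhgef15 encodes a guanine nucleotide exchange factor (chr11:68954434-68954733, minus strand) and Map3k9 a kinase of the JNK pathway (chr12:81780339-81780638, minus strand). Mixl1 is a homeobox gene of the primitive streak (chr1:180696640-180696939, minus strand), Fgf5 a ligand made by the epiblast (chr5:98254743-98255042, plus strand), Pou5f1 encodes the pluripotency factor OCT4 (chr17:35506187-35506486, plus strand), and Cbx7 a chromobox subunit of Polycomb repressive complex 1 (chr15:79933150-79933449, minus strand).
Arhgef15: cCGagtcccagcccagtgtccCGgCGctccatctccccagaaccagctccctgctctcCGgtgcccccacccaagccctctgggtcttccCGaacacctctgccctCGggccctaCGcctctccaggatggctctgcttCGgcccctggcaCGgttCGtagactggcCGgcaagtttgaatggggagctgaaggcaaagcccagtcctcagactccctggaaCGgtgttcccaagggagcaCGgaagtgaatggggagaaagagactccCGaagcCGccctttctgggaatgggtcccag
Map3k9: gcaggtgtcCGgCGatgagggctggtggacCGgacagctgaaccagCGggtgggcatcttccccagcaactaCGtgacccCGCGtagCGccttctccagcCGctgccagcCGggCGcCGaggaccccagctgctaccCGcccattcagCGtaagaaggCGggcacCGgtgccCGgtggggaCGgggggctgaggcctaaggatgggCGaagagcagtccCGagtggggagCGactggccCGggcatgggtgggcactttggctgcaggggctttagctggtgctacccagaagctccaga
Mixl1: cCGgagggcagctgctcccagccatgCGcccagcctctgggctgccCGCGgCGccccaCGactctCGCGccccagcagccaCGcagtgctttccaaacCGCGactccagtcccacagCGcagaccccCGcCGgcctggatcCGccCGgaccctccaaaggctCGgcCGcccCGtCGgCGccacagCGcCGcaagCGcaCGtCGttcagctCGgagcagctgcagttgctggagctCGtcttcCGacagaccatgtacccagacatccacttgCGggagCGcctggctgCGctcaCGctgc
Fgf5: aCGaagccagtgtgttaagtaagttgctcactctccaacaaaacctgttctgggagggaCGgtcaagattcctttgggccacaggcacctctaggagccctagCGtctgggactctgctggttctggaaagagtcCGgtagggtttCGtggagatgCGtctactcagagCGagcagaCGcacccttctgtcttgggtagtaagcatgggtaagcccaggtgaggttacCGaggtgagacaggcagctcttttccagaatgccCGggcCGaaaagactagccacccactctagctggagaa
Pou5f1: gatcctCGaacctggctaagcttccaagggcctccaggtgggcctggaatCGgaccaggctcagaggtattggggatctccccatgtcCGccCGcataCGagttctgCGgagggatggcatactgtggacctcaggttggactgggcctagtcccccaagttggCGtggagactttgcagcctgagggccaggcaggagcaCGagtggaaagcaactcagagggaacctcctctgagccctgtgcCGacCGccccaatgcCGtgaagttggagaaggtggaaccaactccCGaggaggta
Cbx7: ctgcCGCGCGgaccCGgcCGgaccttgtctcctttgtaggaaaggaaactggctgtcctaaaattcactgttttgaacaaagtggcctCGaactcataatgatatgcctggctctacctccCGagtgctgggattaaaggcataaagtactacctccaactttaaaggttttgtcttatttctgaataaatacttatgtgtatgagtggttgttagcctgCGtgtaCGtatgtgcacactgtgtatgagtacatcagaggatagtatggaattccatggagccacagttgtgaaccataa
The window at Mixl1 held 33 CG dinucleotides and had a GC content of 71.3%, that at Map3k9 held 22, and those at Arhgef15, Pou5f1, Fgf5 and Cbx7 held 15, 12, 11 and 9. Over 300 bases around the middle of each region, the median number was 8 in gained, 9 in kept and 4 in lost regions.

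The question of which genes lay near gained regions was taken up with the nearest protein-coding starts (GENCODE vM21). Of 21829 protein-coding genes, 1384 (6.34%) had a gained region within 2.5 kb of a start and 3049 (14%) had a kept region, and 458 genes had both. The 2008 regions were nearest to 1634 genes. Most of these genes, 1357, were nearest to a single gained region, whereas 23 were nearest to at least 4. Six3, a homeobox gene of the forebrain and eye, was nearest to 9 gained regions, Tbx3 to 7, and Gata4 and Tfap2a to 6 each.

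Genes of the primitive streak had a gained region nearby at 11 of 16 genes, the highest share of the 18 lists under the rule as applied, against 6.34% of all protein-coding genes. That rank was not stable. With stricter peaks their count was 5, below neural factors (22 of 41) and epithelial or mesenchymal genes (7 of 16). When regions within 1 kb were merged it was 5, below formative (5 of 15) and Nodal pathway genes (4 of 12), and when no 72 h region was allowed within 1 kb it was 6, the same as for epithelial or mesenchymal genes. Over all lists 89 genes were near a gained region, or 53 after that merging. The 11 genes were T (Brachyury), Mixl1, Eomes, Gsc, Lhx1, Evx1, Sp5, Sp8, Fgf8, Wnt3 and Cdx2. Wnt targets and feedback genes had 6 of 14, or 1 when no 72 h region was allowed within 1 kb or after merging within 1 kb, among them the secreted Wnt antagonists Notum and Dkk1, the ubiquitin ligase Znrf3 and the R-spondin receptor Lgr5. Endoderm regulators had 5 of 12 (among them Sox17, Foxa1, Gata4 and Gata6), neural transcription factors 17 of 41, cardiac and vascular regulators 5 of 13, and genes of the epithelial or mesenchymal state 6 of 16. Formative epiblast genes (5 of 15) and genes of the Nodal pathway (4 of 12) had the same share, and FGF ligands 7 of 22, retinoic acid pathway genes 4 of 13, Hox genes 9 of 39 (3 with stricter peaks), and naive pluripotency genes and Polycomb subunit genes 3 of 17 each. Wnt ligands had 3 of 19, Notch and segmentation clock genes 2 of 16, paraxial mesoderm and somite regulators 2 of 19 and germ line genes 0 of 12.

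**Figure D1:**
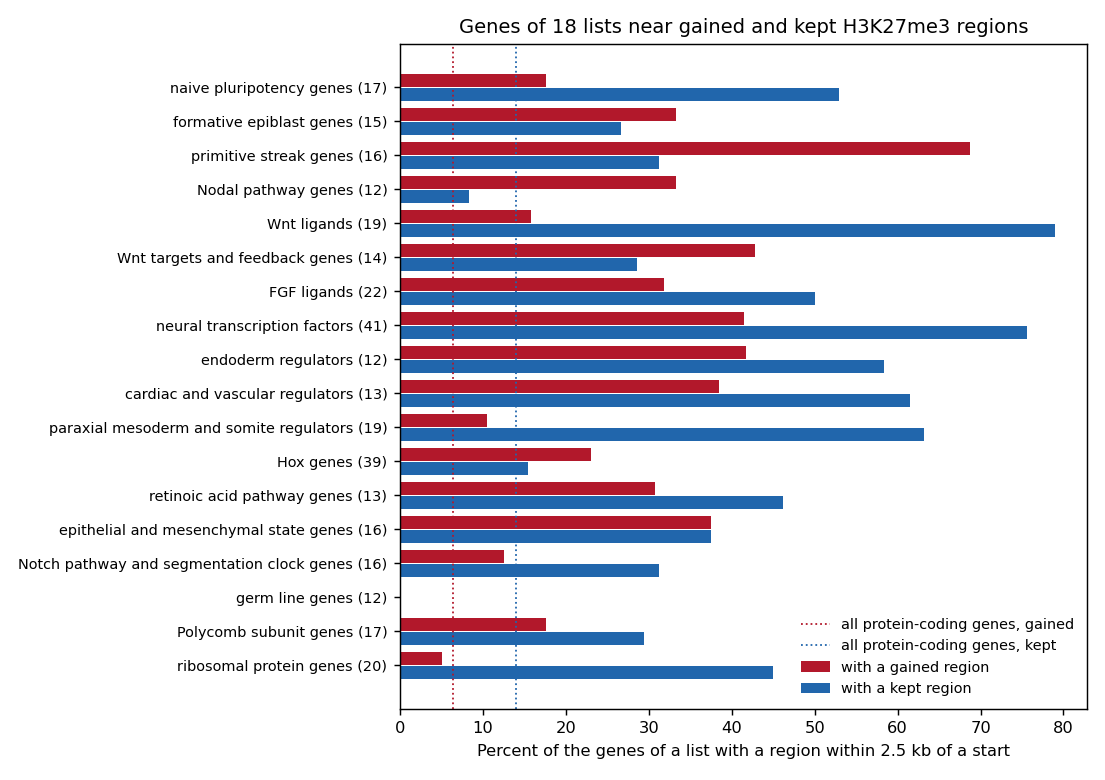
Percent of the genes of each of 18 lists (number of genes in parentheses) with a gained (red) or a kept (blue) H3K27me3 region within 2.5 kb of a protein-coding start. Dotted lines mark all protein-coding genes, 6.34% for gained and 14% for kept regions, and primitive streak genes reach 11 of 16 with a gained region, a count that is 5 with stricter peaks or after merging within 1 kb.

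In several lists the kept regions were more frequent than the gained ones. Kept regions lay near 31 of 41 neural transcription factors, 15 of 19 Wnt ligands and 12 of 19 somite regulators, but near 1 of 12 Nodal pathway genes and 5 of 16 primitive streak genes. Both kinds occurred at 12 of the 17 neural genes with a gained region. Of the 21 gained regions at neural genes, 7 lay within 1 kb of a 72 h region and 1 lay over 5 kb from any. At genes of the epithelial or mesenchymal state 6 of 7 gained regions lay over 5 kb away, and at naive pluripotency genes 4 of 4. At primitive streak genes, 5 of 13 gained regions lay within 1 kb of a 72 h region and 5 lay over 5 kb away.

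The state at 96 h lies between the stages that the rule used. Of the gained regions, 1093 (54.4%) were called in all 3 wt lists of 96 h, 362 (18%) in 2, 234 (11.7%) in 1 and 319 (15.9%) in none. In kept regions, for which at least 1 of these lists was required, 93.8% were called in all 3. Singly, the wt lists of 96 h held 70.2% (replicate 1), 75.6% (replicate 2) and 65.2% (unnumbered) of the gained regions, against 57.2%, 65% and 50% of all merged regions. All 3 lists entered the merge, so their shares of all merged regions were partly set by it. Since libraries of 1 stage differed at the 362 and 234 regions called in 2 or 1 of them, the stage at which a single region was first called is uncertain. The 319 regions called in none were shorter, with a median of 596 bases, than the 1093 called in all, with 1175 bases. Length is that of the merged region, which each further list can only extend. This difference is thus partly set by the count of lists.

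**Figure D2:**
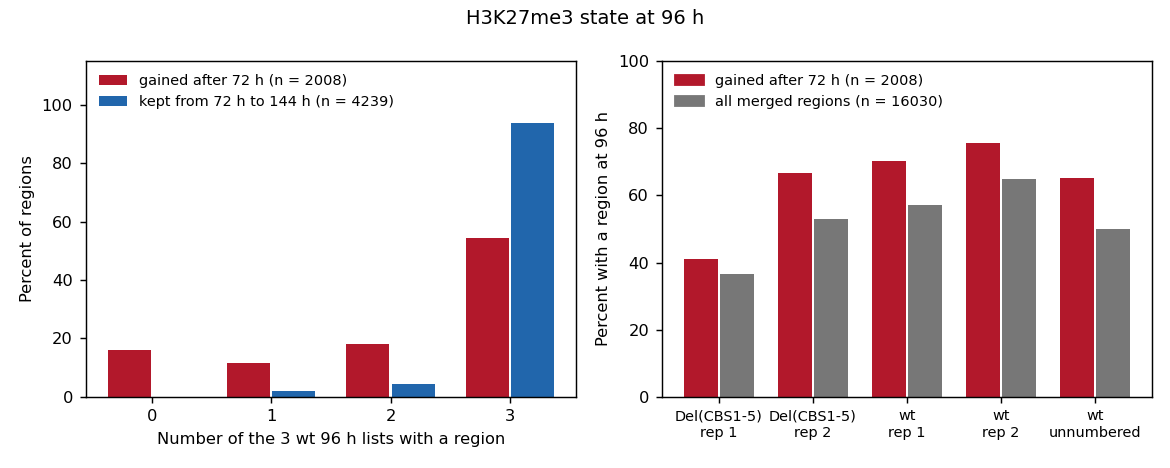
Left, percent of gained (red) and kept (blue) regions by the number of the 3 wt lists of 96 h that held a region. Right, percent of gained (red) and of all merged regions (grey) with an H3K27me3 region at 96 h in each library. The gained regions are called in all 3 wt lists in 54.4% of cases, and the first Del(CBS1-5) library has the lowest share, 40.9%.

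In Del(CBS1-5) stembryos at 96 h, 40.9% and 66.7% of the gained regions were called, against 70.2% and 75.6% in the numbered wt libraries of the same stage. The background was 36.5% and 53% of all merged regions in Del(CBS1-5). The wt lists of 96 h helped to define the merged regions, and the Del(CBS1-5) lists did not. The 2 genotypes were thus not on an equal footing. The unnumbered wt library, with 65.2%, lay between the Del(CBS1-5) libraries. Without it the means were 53.8 ± 18.2% in Del(CBS1-5) and 72.9 ± 3.84% in wt (SD, n = 2 each), a difference of −19.0 percentage points. The exact two-sided permutation test gave p = 0.33, which is the smallest that 2 libraries against 2 allow. With all 3 wt libraries the difference was −16.5 percentage points (exact permutation p = 0.20). The first Del(CBS1-5) library had 7212 regions and a lowest background of 1.43 fragments per base, the lowest of the 8 lists, and without it the difference was −6.15 percentage points. The part played by depth in this difference was not tested.

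Most gained regions were overlapped by H3K27ac at 48 h and 72 h. In the 9 unnumbered wt libraries, taken in the order 48, 72, 84, 96, 108, 120, 132, 144 and 168 h, an H3K27ac region overlapped 54.7%, 63.5%, 50.0%, 48.3%, 32.9%, 24.8%, 30.4%, 22.0% and 31.7% of the gained regions. The share was highest at 72 h. Of all merged regions, 32%, 37.4%, 29%, 30.1%, 21.6%, 17%, 20.7%, 15.7% and 22.8% were overlapped at the same stages. Lost and other regions, which make up much of this background, were shorter and less often near starts than gained regions. The part played by length and position in these shares, here and for the other assays, was not tested. The share of gained regions fell with stage (Spearman's rho = −0.87, exact permutation p = 0.0045, Benjamini-Hochberg adjusted p = 0.012 over 8 trends, and Pearson's r = −0.83, p = 0.0062, adjusted p = 0.017, 9 stages). Without the stages of 48 h and 168 h, r was −0.94. Relative to merged regions that were not gained, which sets both shares against the same list, the share also fell (log2 ratio 0.56 at 168 h, against 0.93 at 48 h, rho = −0.93, p = 0.00075, adjusted p = 0.0046, r = −0.94, p = 9.9e-05, adjusted p = 0.00079). The percent lost its call, with rho = −0.68 and an adjusted p of 0.067, when all lists were cut to the length of the shortest, and rho was −0.78 (adjusted p = 0.069) with stricter H3K27ac peaks. Without the stage of 84 h, 96 h or 108 h the percent had rho = −0.81 and an adjusted p of 0.058. The log2 ratio passed the test under each of these settings. By the rule all gained regions had H3K27me3 calls at 120 h and 144 h. Of the regions that were not gained, 59.3% and 34.6% did, so the choice of regions can partly set this ratio. H3K27ac overlapped 9.29% of lost regions at 48 h and 15.2% at 168 h. The same limit applies to each later ratio to regions that were not gained. Kept regions followed much the same course, at 48.0%, 64.8%, 49.5%, 50.5%, 33.8%, 25.9%, 33.6%, 24.2% and 35.5%. Set against them, an alternative added after the data had been seen, the log2 ratio was near 0 throughout, −0.16 at 168 h against 0.19 at 48 h, with a fall over stages (rho = −0.95, exact permutation, adjusted p = 0.0028). With 1 library at each stage, stage and library cannot be told apart.

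**Figure D3:**
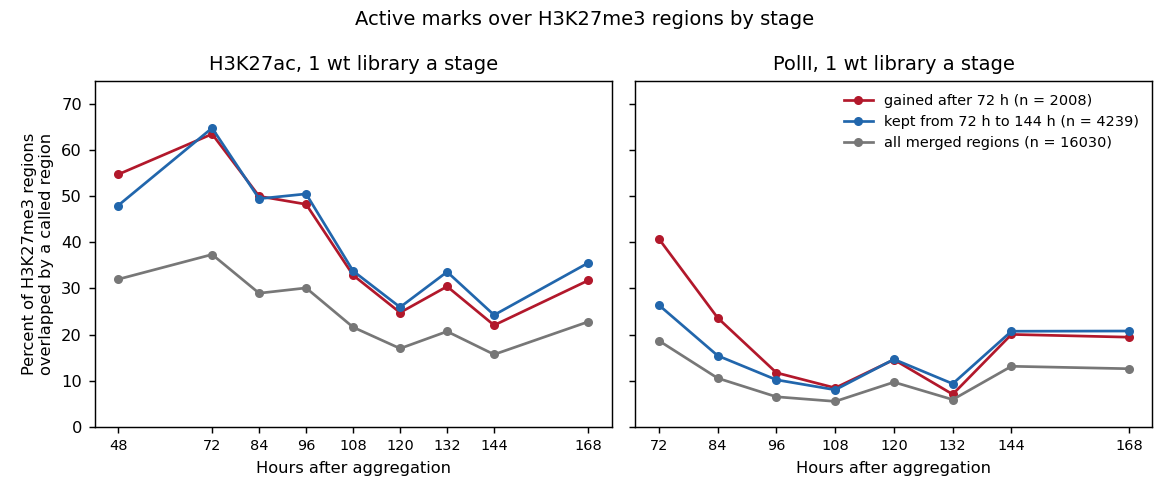
Percent of gained (red), kept (blue) and all merged (grey) H3K27me3 regions overlapped by at least 1 base of an H3K27ac region (left) or a PolII region (right), by hours after aggregation, 1 wt library at each stage. H3K27ac over gained regions is highest at 72 h (63.5%) and lowest at 144 h (22.0%), close to kept regions, and PolII over gained regions is highest at 72 h (40.7%), above kept regions (26.4%).

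The overlap was often partial. At 120 h, 24.8% of gained regions shared at least 1 base with an H3K27ac region and 5.68% were covered over at least 50% of their length, against 63.5% and 24.7% at 72 h. At least 1 of the lists of 48 h, 72 h and 84 h had H3K27ac at 1431 gained regions (71.3%), of which 634 (44.3%) had it in none of the 4 lists from 120 h onwards. At 264 regions (13.1%) H3K27ac was called in all 3 early and all 4 late lists, and at 505 (25.1%) in none of the 9. In kept regions these counts were 3076 (72.6%), 1232 (40.1%), 507 (12.0%) and 963 (22.7%) of 4239. Early H3K27ac was thus also called at most kept regions, which were called for H3K27me3 at 72 h already.

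The replicated libraries allowed a test of 120 h against 96 h. H3K27ac overlapped 18.3% and 16.2% of gained regions in Del(CBS1) at 120 h, against 22.3% and 25.4% at 96 h. In Del(CBS1-2) it overlapped 16.5% and 18.3% at 120 h, against 30.0% and 33.0% at 96 h, and in the numbered wt libraries 13.0% and 10.0% at 120 h, against 27.4% and 23.6% at 96 h. The unnumbered wt libraries stood above the numbered ones, with 24.8% at 120 h and 48.3% at 96 h. Within each genotype and numbering, every library of 120 h was below every library of 96 h. Of all merged regions, the corresponding backgrounds were 13.8% and 11.9% in Del(CBS1) at 120 h and 13.2% and 14.6% at 96 h, 12.8% and 13.8% in Del(CBS1-2) at 120 h and 17.2% and 20.1% at 96 h, and 9.98% and 8.28% in numbered wt at 120 h and 16% and 13.4% at 96 h.

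The mean share was 16.7 ± 4.63% at 120 h and 30.0 ± 8.85% at 96 h (SD, n = 7 libraries each), a difference of −13.3 percentage points (exact two-sided permutation test within genotype and numbering, p = 0.0046, adjusted p = 0.0046 over 2 measures, the smallest that 432 regroupings allow for a two-sided test). The log2 ratio to merged regions that were not gained averaged 0.47 ± 0.10 at 120 h and 0.92 ± 0.06 at 96 h, a difference of −0.44 (p = 0.0046, adjusted p = 0.0046, exact test as above). The change was −6.60 percentage points in Del(CBS1), −14.1 in Del(CBS1-2), −14.0 in numbered wt and −23.5 in the single pair of unnumbered wt libraries. In Del(CBS1) it differed from that in numbered wt by 7.37 percentage points (exact permutation p = 0.11) and in Del(CBS1-2) by −0.12 (p = 1), where 36 regroupings allow no p below 0.056. In wt alone the difference was −17.1 percentage points (exact permutation p = 0.17). Kept regions were also overlapped less at 120 h, with 15.9 ± 5.30%, than at 96 h, with 25.8 ± 12.0% (SD, n = 7 each). Set against kept regions only, an alternative added after the data had been seen, the log2 ratio of gained regions was 0.09 ± 0.08 at 120 h and 0.28 ± 0.20 at 96 h, a difference of −0.19 (exact permutation p = 0.023).

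**Figure D4:**
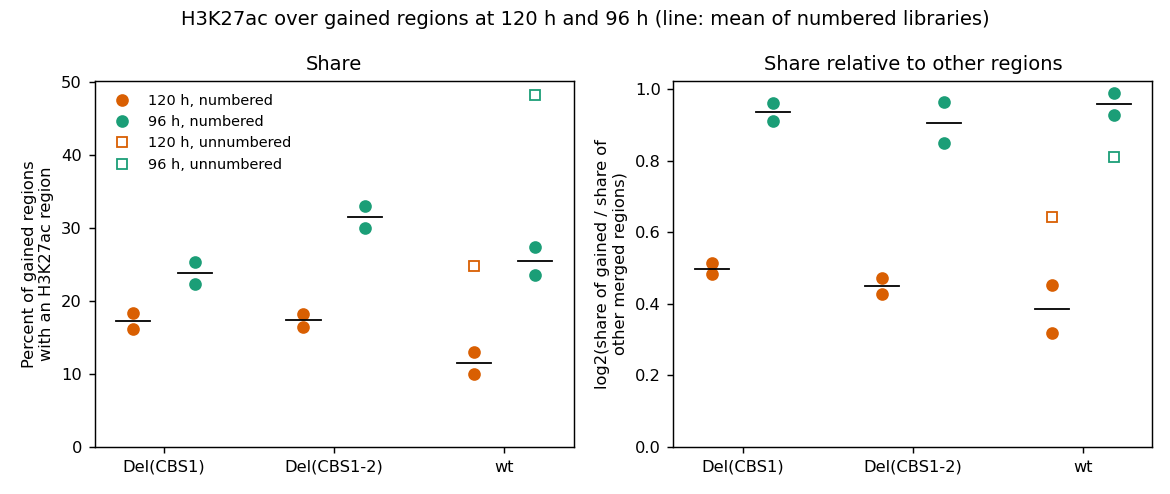
Left, percent of gained regions overlapped by an H3K27ac region in each of 14 libraries, by genotype, with 120 h left of 96 h. Right, the log2 ratio of that share to the share of merged regions that were not gained. Filled circles are numbered libraries (line, mean of 2), open squares unnumbered wt libraries, and every 120 h library lies below the 96 h libraries of its genotype and numbering.

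PolII overlapped the largest share of gained regions at 72 h. In the order 72, 84, 96, 108, 120, 132, 144 and 168 h, a PolII region overlapped 40.7%, 23.6%, 11.7%, 8.42%, 14.5%, 7.02%, 20.0% and 19.4% of gained regions. Of all merged regions, 18.6%, 10.5%, 6.48%, 5.49%, 9.66%, 5.88%, 13.1% and 12.6% were overlapped at these stages. The share did not follow stage throughout (rho = −0.36, exact permutation p = 0.39, adjusted p = 0.39, r = −0.43, p = 0.30, adjusted p = 0.30, 8 stages, and r = −0.21 without 72 h and 168 h). The log2 ratio to merged regions that were not gained was 0.74 at 168 h, against 1.40 at 72 h, and did not pass the test (rho = −0.67, exact permutation p = 0.083, adjusted p = 0.13, and r = −0.74, p = 0.039, adjusted p = 0.062). It passed without the stage of 168 h (rho = −0.86, adjusted p = 0.038) and over the gained regions more than 5 kb from a 72 h region (rho = −0.90, adjusted p = 0.0091). Against kept regions only, the same ratio was 0.63, 0.62, 0.20, 0.07, −0.01, −0.41, −0.05 and −0.10 in the same order of stages (rho = −0.93, exact permutation, adjusted p = 0.0060, an alternative added after the data had been seen). The share at gained regions was thus above that at kept regions from 72 h to 96 h and below it at 132 h. It was close to it at 108 h, 120 h, 144 h and 168 h.

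At 72 h, H3K27ac and PolII were called together at 764 gained regions (38.0%) and neither was called at 679 (33.8%), against 24.3% and 33.1% of kept regions. Of the 818 gained regions with PolII at 72 h, 391 (47.8%) had none in the lists of 120 h to 168 h and 113 had it in all 4. Elongating pSer2 PolII overlapped, in the order 72, 84, 96, 120 and 144 h, 14.9%, 0.996%, 8.57%, 2.54% and 1.2% of gained regions, against 6.48%, 1.04%, 5.58%, 3.13% and 1.92% of all merged regions. Its share of gained regions was above the background at 72 h and 96 h, close to it at 84 h and below it at 120 h and 144 h. The lists differed widely in length, from 3987 regions at 84 h to 24177 at 96 h.

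Cohesin, the ring complex that extrudes chromatin loops, was examined over the same regions. Its loader NIPBL overlapped 22.2% of gained regions at 168 h, against 16.3% of all merged regions, and 10.1% at 72 h, against 5.02%. Neither its share (rho = 0.43, exact permutation p = 0.30, adjusted p = 0.34) nor its log2 ratio (rho = −0.76, p = 0.037, adjusted p = 0.074) passed the test after adjustment. With lists cut to the shortest the share turned round and passed (rho = −0.81, adjusted p = 0.044), and the log2 ratio passed without the stage of 120 h or 132 h (rho = −0.86) or 168 h (rho = −0.82). For the cohesin subunit RAD21 the log2 ratio fell with stage (0.35 at 168 h, against 0.70 at 48 h, rho = −0.95, exact permutation p = 0.0011, adjusted p = 0.0046), and the share did not pass the test (rho = 0.55, exact permutation p = 0.17, adjusted p = 0.23). It did so without the stage of 168 h (rho = 0.86, adjusted p = 0.038) and with lists cut to the shortest (rho = 0.93, adjusted p = 0.0089). The RAD21 ratio lost its call when at least 50% of the region had to be covered (rho = −0.64, adjusted p = 0.15), when the lists were cut to the shortest (rho = −0.40, adjusted p = 0.37) and with stricter peaks (rho = −0.64, adjusted p = 0.19).

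Gained regions far from earlier H3K27me3 carried more of the active marks than those beside it. Among the 1144 gained regions over 5 kb from a 72 h region, 71.2% had H3K27ac and 51.4% had PolII at 72 h, and among the 864 within 5 kb, 53.2% and 26.6% did. At 120 h H3K27ac was called at 30.9% of the far and 16.7% of the near regions. Gained regions within 2.5 kb of a start had H3K27ac at 72 h in 68.2% of cases, against 51.0% of those away from starts. By state at 96 h, H3K27ac was called at 72 h in 70.8%, 51.7%, 51.3% and 60.8% of the regions found in 3, 2, 1 and 0 wt lists of 96 h, and PolII in 46.5%, 29.8%, 29.1% and 42.0%, so that neither share followed the number of lists. These are descriptions of regions, which are not replicates, and were not tested.

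Of the naive pluripotency genes, Nanog and Pou5f1 had H3K27ac and PolII at their gained regions in lists up to 96 h and in none of the later ones. Nanog, a homeobox factor of naive pluripotency, had a gained region of 696 bases that holds a start (chr6:122707450-122708145) with a fold enrichment of 5.30 at 120 h and 5.14 at 144 h, and was called in no list of 96 h. H3K27ac was called there at 48 h and 72 h only and PolII at 72 h and 84 h only. At Pou5f1 a gained region of 1768 bases was called in all 3 wt lists of 96 h, with fold enrichments of 4.74, 5.21 and 4.30, at 120 h (4.22), at 144 h (4.35) and, of the Del(CBS1-5) libraries, the second (3.95). H3K27ac was called at Pou5f1 from 48 h to 96 h, and PolII at 72 h and 84 h. Tbx3, a T-box factor also expressed in naive cells, had gained regions of 640 and 2202 bases near its starts without H3K27ac or PolII in any list. Kept regions lay near 9 of the 17 genes of this list, including Klf4, Esrrb and Prdm14.

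Several formative and Nodal pathway genes also carried H3K27ac and PolII at the early stages. Tdgf1, which encodes the Nodal co-receptor Cripto, carried a gained region of 3428 bases with H3K27ac from 48 h to 96 h, PolII at 72 h and 84 h, and fold enrichments of H3K27me3 of 3.78 at 120 h and 3.42 at 144 h. Nodal, the ligand itself, had 3 gained regions within 2.5 kb of a start. The one holding a start (chr10:61416145-61418032) had H3K27ac at 48 h and 72 h and PolII at 72 h only, whereas the next, of 653 bases, had H3K27ac from 48 h to 108 h and again at 168 h, with PolII at 72 h and 84 h. Foxh1, the forkhead partner of SMAD proteins in Nodal signalling, was called in no list of 96 h and had H3K27ac from 48 h to 108 h. Of the 7 gained regions at Nodal pathway genes, 1 had H3K27ac at 120 h and 6 at 72 h, and 0 had PolII at 120 h and 5 at 72 h. Over all gained regions, H3K27ac was called at 24.8% at 120 h and 63.5% at 72 h, and PolII at 14.5% and 40.7%. The lower share at 120 h was thus general to gained regions. Fgf5 differed, since H3K27ac was called over its longer gained region (2423 bases, fold enrichment of 4.41 at both 120 h and 144 h) in all 9 lists, with PolII at 72 h and 84 h only.

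All gained regions at genes of the epithelial or mesenchymal state were already called at 96 h. The gained regions at Cdh1 (E-cadherin), Epcam, Cldn6, Cldn7 (claudins of tight junctions) and Esrp1 (an epithelial splicing regulator) were called in all 3 wt lists of 96 h, as was that at the mesenchymal factor Twist1. At Cdh1 the region spanned 2962 bases (chr8:106602621-106605582) with fold enrichments of 4.51 at 120 h and 3.70 at 144 h, while H3K27ac was called in 8 of 9 lists. Cldn7 had H3K27ac in 9 of 9 and PolII in 7 of 8 lists, whereas Cldn6 had H3K27ac at 48 h, 72 h and 84 h and PolII at 72 h only. Of the 7 regions of this list, 3 had H3K27ac at 120 h and 6 at 72 h, and 3 had PolII at 120 h and 7 at 72 h. The shares of all gained regions were 24.8% and 63.5% for H3K27ac and 14.5% and 40.7% for PolII. All 3 wt lists of 96 h held 54.4% of all gained regions.

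At primitive streak genes most gained regions were called in no wt list of 96 h. Of 13 regions, 8 were in no wt list of that stage and 2 in all 3, beside 15.9% and 54.4% of all gained regions. Both regions of T and both of Fgf8 were among the 8, so that these are not separate genes. T had a region of 983 bases beside a start and one of 604 bases that holds it, with fold enrichments of 2.37 and 3.04 at 120 h and 2.90 and 3.23 at 144 h, neither called at 96 h. H3K27ac and PolII were called over the first of them at all stages measured. The region at Cdx2 (2938 bases, chr5:147304413-147307350, fold enrichment of 3.27 at 120 h and 2.25 at 144 h) had H3K27ac from 72 h to 168 h and PolII in all 8 lists. At Evx1 H3K27ac was called in 7 of 9 lists and PolII in 7 of 8. Mixl1 differed, being called in all 3 wt lists of 96 h (5.17, 4.22 and 4.96) and in neither Del(CBS1-5) list, and reached 7.27 at 120 h and 6.28 at 144 h, with H3K27ac from 48 h to 132 h and PolII at 72 h and 84 h. Of the 13 regions, 7 had H3K27ac at 120 h and 10 at 72 h, and 4 had PolII at 120 h and 6 at 72 h. Among all gained regions these shares were 24.8% and 63.5% for H3K27ac and 14.5% and 40.7% for PolII.

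**Figure D5:**
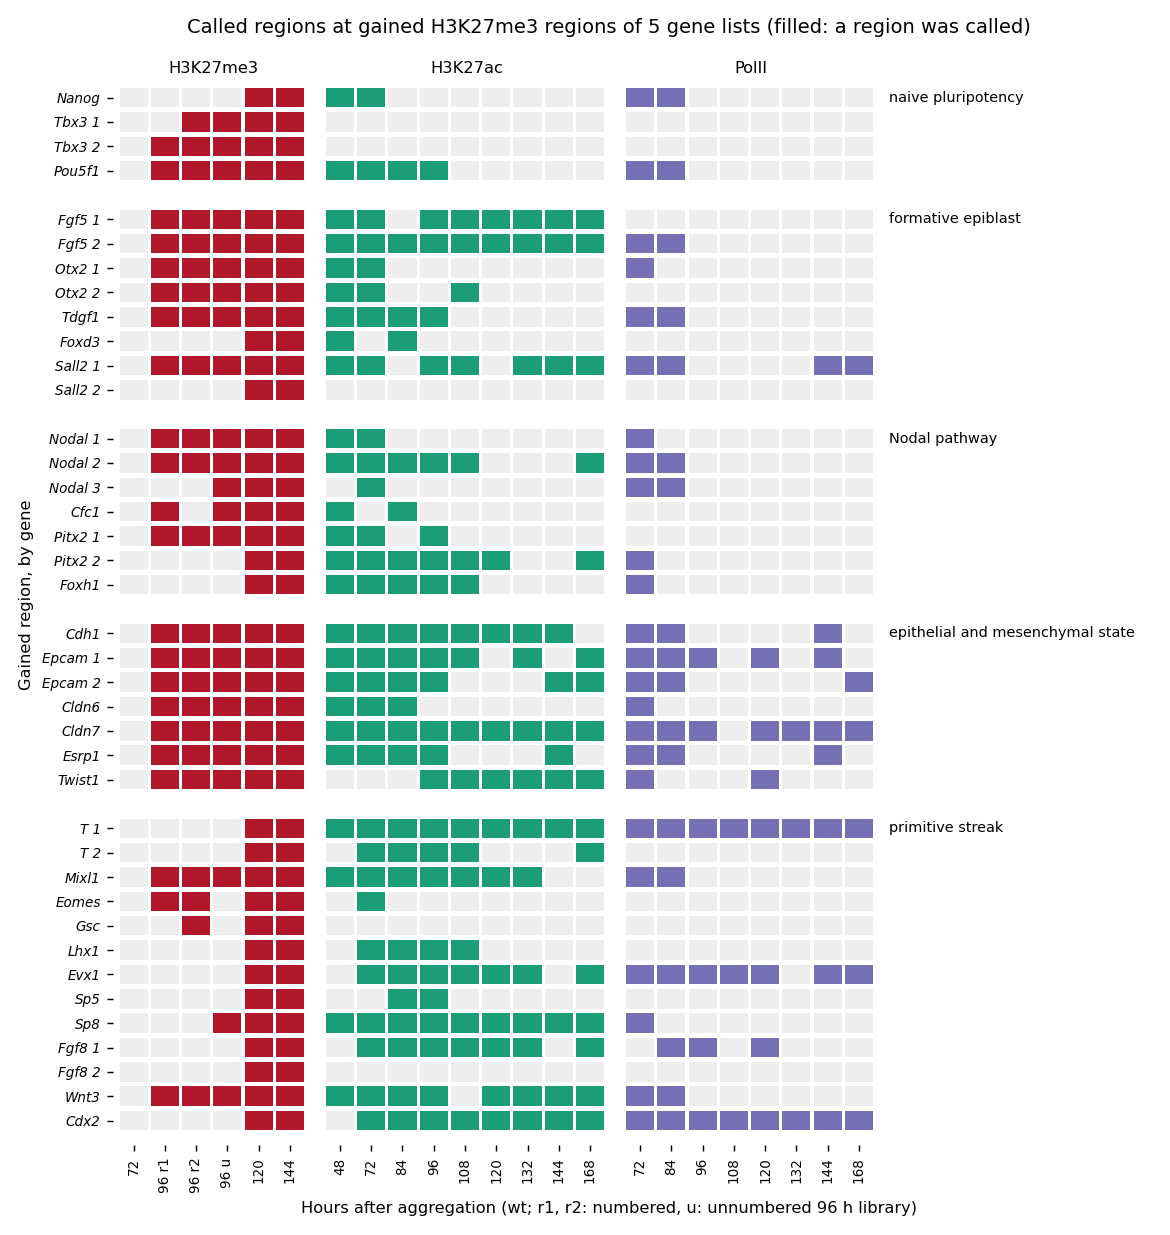
Presence of called H3K27me3 (red), H3K27ac (green) and PolII (purple) regions at each gained region near a gene of 5 lists, in columns by hours after aggregation (wt, numbers after a gene separate its regions). Nanog, Pou5f1 and Tdgf1 have no H3K27ac or PolII calls from 108 h, whereas the 983-base region at T and those at Evx1 and Cdx2 have both at most later stages.

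Among Wnt feedback genes, Dkk1 and Notum had H3K27ac and PolII at late stages too. The gained region at Dkk1 was called in no list of 96 h, had a fold enrichment of 5.23 at 120 h and 4.28 at 144 h, and PolII was called there in 7 of 8 lists. At Notum H3K27ac was called in 9 of 9 lists, with an H3K27me3 fold enrichment of 4.45 at 120 h and 3.96 at 144 h. Of the 6 regions of this list 5 lay within 1 kb of a 72 h region.

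Gained regions at Hox genes and neural transcription factors had no H3K27ac call at 120 h and few PolII calls. The 13 gained regions at Hox genes, all in the posterior part of their clusters (Hoxa9, Hoxa10, Hoxa11, Hoxa13, Hoxc11, Hoxc12, Hoxc13, Hoxd11 and Hoxd13), had H3K27ac at 120 h in 0 cases and at 72 h in 5, and no PolII at either stage. For H3K27ac the background was 17% of all merged regions at 120 h and 37.4% at 72 h, close to the Hox share at 72 h. For PolII it was 9.66% and 18.6%. Of the 13 Hox regions, 4 lay within 1 kb of a 72 h region and 2 lay over 5 kb from any. The paper describes an H3K27me3 domain over the inactive posterior part of HoxD, which retracted until 120 h. Hoxd13, the most posterior gene of its cluster, had a region of 617 bases with fold enrichments of 1.98 at 120 h and 1.83 at 144 h. The lower of its fold percentiles in those lists was 1.35. Among the 13 Hox regions this value ran from 0.117 at Hoxc12 to 6.72 at Hoxc11, with 12.6 at Hoxa13. They were thus among the weaker calls of those lists. A gained call there does not show that these genes newly acquired the mark. The 21 regions at neural transcription factors had H3K27ac at 120 h in 0 cases and at 72 h in 6, and PolII at 120 h in 1 and at 72 h in 2. At Pax6, an eye and neural tube regulator, the fold enrichment was 1.83 at 120 h and 2.22 at 144 h, and H3K27ac was called at 96 h only. Sox17, an endoderm factor, had a region with H3K27ac from 48 h to 108 h and fold enrichments of 2.46 at 120 h and 2.68 at 144 h.

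Components of the Polycomb system were themselves among the genes. Cbx7 had gained regions of 991 and 1433 bases, of which the second was called in all 3 wt lists of 96 h (7.06, 5.85 and 5.21), in both Del(CBS1-5) lists (5.41 and 5.38), at 120 h (4.15) and at 144 h (4.45). H3K27ac was called there at 48 h, 72 h and 84 h only. Phf19, an accessory protein of Polycomb repressive complex 2, had both gained and kept regions, and its gained region had a fold enrichment of 2.65 at 120 h.

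The gained regions with the highest enrichment were, except Rps18, nearest to genes outside the lists. The 15 regions with the highest rank in both the 120 h and the 144 h list were nearest to Plekha1, Dynlt1b, Rps18, Fbxw4, Mxd3, Tns2, Tmem200a, Ildr1, Arhgef15, Map3k9, Zfp868, Ccdc116, Rell2, Ahr and Kcnab2. The first 4 of them were short, between 224 and 482 bases, and Plekha1, with fold enrichments of 14.4 at 120 h and 14.9 at 144 h, was the highest of all. Rps18, the gene of a ribosomal protein, had H3K27ac in 9 of 9 and PolII in 8 of 8 lists. Ahr, the aryl hydrocarbon receptor, had a region of 1305 bases called in every H3K27me3 list except that of 72 h (7.59, 8.09 and 8.32 in wt at 96 h, 6.86 at 120 h and 6.61 at 144 h), with H3K27ac at 48 h and PolII at 72 h only. At Tns2, a focal adhesion protein, H3K27ac was called at 48 h and 72 h and PolII at 72 h and 84 h. Mxd3 and Kcnab2, a potassium channel subunit, had neither in any list.

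Regions at starts with early but no late acetylation were listed separately. By the named rule the 10 highest were at Ccdc194, Pnpla3, Acp5, Cdyl, Frem3, Shkbp1, Mllt6, Slc8b1, Unc79 and Tob2, chosen because H3K27ac was called at 48 h, 72 h and 84 h and in none of the lists of 120 h to 168 h, so that this pattern is not a finding. PolII was called at 72 h at 8 of the 10, and from 120 h onwards at Pnpla3 and Slc8b1 only. The choice did not use PolII but did use H3K27ac, with which PolII often occurred. Of the 1275 gained regions with H3K27ac at 72 h, 764 also had PolII then. Tob2, an antiproliferative factor, was called in no list of 96 h and had an H3K27me3 fold enrichment of 6.04 at 120 h and 5.36 at 144 h. Acp5, tartrate-resistant acid phosphatase, had 6.26 at 120 h and 7.25 at 144 h and was called in all 3 wt lists of 96 h.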

How the data were processed

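Of 82 samples, 71 peak lists were used and 9 were not, as they bear on assays or mutants outside these comparisons. Per the labels and the submitters' processing notes, the authors used cutadapt 1.16, Bowtie2 2.3.4.1 (mm10) and SAMtools 1.8, and called peaks per library with MACS2 2.1.1.20160309 without input, except that 3 pSer2 PolII samples of 144 h share 1 list. The deposited lists give fold enrichment (a ratio over local background) and −log10 p-value and q-value. Overlapping peaks of a list were joined to regions on 21 assembled chromosomes, and a shared base counted as overlap. Depth was solved from the deposited fold and −log10 values as fragments per base; it covers counting error only. Gene starts were GENCODE vM21, protein-coding, within 2.5 kb. Members and lists were chosen with earlier results of these data known. Named were (a) the 15 regions with the highest lower percentile of fold at 120 h and 144 h, (b) each within 2.5 kb of a start of a gene of 18 lists, and (c) 10 at starts with H3K27ac in most early and fewest late lists. Trends used exact permutation tests of rho and r with Benjamini-Hochberg adjustment, and groups exact two-sided permutation tests, tested on simulated data. The study describes its ChIP replicates as biological duplicates, each a pool of stembryos, of which some came from different cultures. Which ones is not given in the sources used here, so p-values of the group tests measure the spread between these pools. The study describes its time courses as single replicates. Trend tests permuted the order of stages, with 1 library a stage or, for RAD21, stage means. Their p-values therefore measure no spread between pools of 1 stage. Python 3.11.15, numpy 2.4.6, pandas 2.3.3, scipy 1.17.1 and pysam 0.24.0 were used. Alternatives were stricter peaks, equal list lengths, other overlaps and merging, left-out libraries or stages, and a replicate block.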

Additional observations from a re-analysis of the deposited data

How the results depend on the processing

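Of the results recomputed, 346 were unchanged, 35 values or counts moved, 14 trends or contrasts newly passed, 10 no longer passed and 2 trends reversed. A test counted as unchanged if it kept its direction and side of the threshold, and a count or share if it stayed close. Of the 346, 127 were gene list counts, which have no threshold. Merging within 1 kb left 1300 gained regions and 53 list genes. The H3K27ac percent lost its call with lists cut to the shortest (rho −0.68) or stricter peaks (−0.78). The PolII log2 ratio passed without 72 h regions within 1 kb (−0.86), with merging within 1 kb or lists cut to the shortest (−0.88 each), and, both added after seeing the data, over 5 kb from 72 h regions (−0.90) or against kept regions (−0.93). NIPBL reversed and passed for the percent with the shortest lists (−0.81) and reversed for the log2 ratio with at least 50% covered (0.21); that ratio passed under −0.79 (no 72 h region within 1 kb, and merging) and −0.81 (over 5 kb). The RAD21 percent passed with the shortest lists (0.93), and its log2 ratio failed there (−0.40), with 50% covered and with stricter peaks (−0.64 each). In wt alone the 120 h minus 96 h H3K27ac differences were −17.1 percentage points and −0.44, where p cannot fall under 0.17. Regions in all 3 wt lists of 96 h were 59.0% (stricter), 47.9% (equal length) and 57.7% (merging), and those in none 11.7%, 17.7%, 17.7% (no 72 h region within 1 kb, as for equal length) and 18.5% (over 5 kb). Starts lay within 2.5 kb of 78.8% (stricter) and 70.0% (merging). The causes were not tested.

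Leaving out 1 stage or library gave rho of −0.95 to −0.81 and −0.98 to −0.90 for H3K27ac (percent and log2 ratio), −0.54 to −0.04 and −0.86 to −0.50 for PolII, 0.21 to 0.71 and −0.86 to −0.64 for NIPBL, and 0.36 to 0.86 and −0.96 to −0.93 for RAD21, and differences of −14.6 to −10.2 and −0.47 to −0.42 for H3K27ac at 120 h against 96 h and −31.9 to −6.15 for Del(CBS1-5) against wt. Replicate numbers do not pair the samples (correlations of deviations 0.01, −0.02, −0.02 and 0.07). With a replicate block the differences were −13.3 (exact permutation p = 0.016), −0.44 (p = 0.016) and −19.0 (p = 0.50), and no call changed. The state at 96 h was not computed from only the 4 unnumbered lists.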
